A study of Mus musculus with 4 samples.

Results

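Insulin cells of cultured mouse islets were compared between 2 single-cell libraries that differed in the glucose of the medium, 11.1 mM against 3.9 mM, both with DMSO, the solvent control (vehicle) for the drug imeglimin. Per the labels, the islets came from male wild-type C57BL6J mice aged 8 weeks, were kept for 24 h in culture, were dispersed with Accutase and were captured with 10x Genomics droplet reagents. How many mice or cultures entered a library was not given in the sources used here. Each condition was 1 library, so no spread between cultures could be measured and no test was made: intervals below are exact 95% intervals that cover counting error only, and cells of 1 library are not replicates. The series holds 2 more libraries, at the same glucose levels with 1 mM imeglimin.

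A cell barcode was kept with at least 1000 UMIs (unique molecular identifiers, each marking 1 captured transcript), at least 500 genes and at most 20% of UMIs from mitochondrially encoded genes. A kept cell was read as an insulin cell when Ins1 and Ins2 together gave at least 4% of its UMIs, Gcg (glucagon) under 2%, and Sst (somatostatin) and Ppy (pancreatic polypeptide) each under 1%. These limits gave 4525 insulin cells of 7166 kept at 3.9 mM and 5197 of 7444 at 11.1 mM, that is 9722 of 14610 kept cells of both libraries, in a series of 31792 kept cells. Because the rule uses insulin transcripts, the cell share at each glucose level depends on it: 63.1% (95% Clopper-Pearson interval 62.0 to 64.3) at 3.9 mM and 69.8% (68.8 to 70.9) at 11.1 mM. At 3.9 mM 357 cells lay just inside the limit, at 4 to 5% insulin UMIs, and 272 just outside, at 3 to 4%, against 2 and 11 cells at 11.1 mM. With at least 1% Iapp (amylin, the peptide stored beside insulin) in place of the insulin limit, the order of the shares turned, with 71.69% at 3.9 mM and 69.96% at 11.1 mM, so the data give no firm order for the share of insulin cells.

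The insulin cell, or beta cell, takes up glucose through the transporter Slc2a2 (GLUT2), phosphorylates it and passes the carbon through glycolysis into the mitochondria. The ATP so made closes potassium channels, calcium enters and insulin granules fuse with the cell membrane. Glucose also acts on transcription of the insulin genes, which the factors Pdx1, Neurod1 and Mafa bind, and mice carry a pair of insulin genes, Ins1 and Ins2. When amino acids run short or proteins misfold, kinases that phosphorylate the initiation factor eIF2 start the integrated stress response, in which Atf4 and Ddit3 (CHOP) switch on genes such as Trib3 and Nupr1.

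The 4 stretches of reference sequence shown here belong to genes on which the results turn: the windows of 250 bases before the annotated start of Ins1, Iapp, Txnip and Nupr1 (RefSeq, build GRCm38.p6, 5′ to 3′ along the gene). They lie at chr19:52264047-52264296 (Ins1, plus strand), chr6:142298175-142298424 (Iapp, plus strand), chr3:96557707-96557956 (Txnip, plus strand) and chr7:126625471-126625720 (Nupr1, minus strand). In Ins1 and Iapp the capitals mark CATCTG and TAAT, letters found in sites of E-box and homeodomain factors, on either strand.
Ins1: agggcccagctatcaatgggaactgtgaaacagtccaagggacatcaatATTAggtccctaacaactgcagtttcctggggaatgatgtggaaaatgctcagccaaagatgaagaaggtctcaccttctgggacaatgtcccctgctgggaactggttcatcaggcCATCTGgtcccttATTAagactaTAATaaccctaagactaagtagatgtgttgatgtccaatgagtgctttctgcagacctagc
Iapp: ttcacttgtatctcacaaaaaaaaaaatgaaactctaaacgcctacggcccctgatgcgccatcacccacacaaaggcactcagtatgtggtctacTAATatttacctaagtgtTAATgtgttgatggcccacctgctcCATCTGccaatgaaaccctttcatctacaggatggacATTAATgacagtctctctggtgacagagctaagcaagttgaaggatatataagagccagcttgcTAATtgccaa
CATCTG occurred once in each of these 2 windows and in 14.4% of all 32851 windows of the table. TAAT occurred 3 times in Ins1 and 5 times in Iapp, where a pair on opposite strands overlapped by 2 bases, and in 54.9% of all windows. In Txnip the capitals mark a pair of CACGNG separated by 5 bases, the layout of a carbohydrate response element, and in Nupr1 TGATGNAA, the letters of a CCAAT/enhancer binding protein and ATF composite site, here on the opposite strand.
Txnip: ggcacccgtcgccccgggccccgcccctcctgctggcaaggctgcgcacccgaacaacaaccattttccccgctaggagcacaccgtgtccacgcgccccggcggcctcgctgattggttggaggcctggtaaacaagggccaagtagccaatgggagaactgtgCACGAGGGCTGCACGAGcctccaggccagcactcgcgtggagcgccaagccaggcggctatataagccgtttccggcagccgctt
Nupr1: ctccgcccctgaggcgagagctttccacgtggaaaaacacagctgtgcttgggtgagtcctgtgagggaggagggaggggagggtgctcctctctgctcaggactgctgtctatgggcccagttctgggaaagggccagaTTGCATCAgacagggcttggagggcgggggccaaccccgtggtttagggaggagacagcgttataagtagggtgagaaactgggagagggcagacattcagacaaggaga
The CACGNG pair occurred in 15 of the 32851 windows (0.0457%). TGATGNAA occurred in 1134 windows (3.45%) and in 6 of the 26 windows of the integrated stress response genes (Atf3, Chac1, Fgf21, Jdp2, Nupr1 and Vldlr), and not in those of Ddit3 and Trib3. A match is a description of letters, not a measured site.

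The 2 libraries had similar depth. The totals were 96065809 UMIs at 3.9 mM and 103507322 at 11.1 mM, with medians of 12270 and 13010 UMIs and of 3786 and 3200 genes per insulin cell. The share of mitochondrially encoded UMIs was also similar, with medians of 2.28% and 2.53% in insulin cells, but 13.4% of all barcodes at 3.9 mM and 5.21% at 11.1 mM stood above the 20% limit and were left out. Of all deposited barcodes 25 occurred in both libraries, 8 of them insulin cells in both. The doublet caller marked 0 cells in either library and so did not work. The 10 fixed beta-cell markers were present in both libraries, and the summed level of macrophage, endothelial, stromal, Schwann and acinar markers lay between 3.92 and 57.4 CPM (UMI counts scaled to a library of fixed size) at either glucose level. Of the 8 glucagon-cell markers 4 reached the level for comparison used below, of which 2 were higher and 1 lower at 11.1 mM. All 8 summed to 564 CPM at 3.9 mM and 995 at 11.1 mM, led by Gcg (299 and 493) and Ttr (163 and 374), and the 6 duct markers, with 1 of 3 compared higher, to 365 and 632 CPM, where Spp1 (osteopontin) went from 18.8 to 338. Gcg, Ttr and Spp1 were over 10 times higher in another class of cells of at least 1 library, so free RNA in the droplets can have given those UMIs, which was not tested.

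Insulin transcripts set the 2 libraries apart clearly, cell by cell. The median insulin cell held 9.38% insulin UMIs at 3.9 mM (quartiles 6.73 and 12.9) and 32.9% at 11.1 mM (27.1 and 38.5). In UMIs, the median cell held 1181 insulin transcripts at 3.9 mM and 4361 at 11.1 mM, while all transcripts other than hormones came to 10121 and 7403. The 2 distributions overlapped at their edges: 397 cells at 3.9 mM (8.77%) reached the lowest 5% point of the 11.1 mM cells (17.9% insulin), and 418 cells at 11.1 mM (8.04%) lay at or under the highest 5% point of the 3.9 mM cells (20.5%). With the Iapp limit, which does not select on insulin, the medians were 8.57% and 32.9%. Relative to its median the spread was wider at 3.9 mM, where the distance between quartiles was 0.654 of the median against 0.348 at 11.1 mM.

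**Figure D1:**
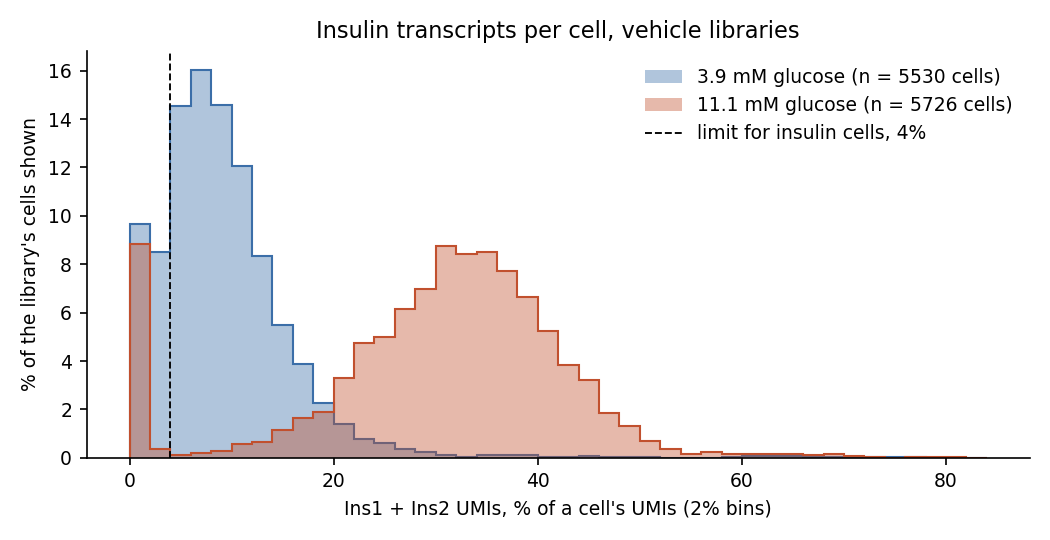
Share of each cell's UMIs that came from Ins1 and Ins2, in bins of 2%, for kept cells with low Gcg, Sst and Ppy in each vehicle library (5530 cells at 3.9 mM, 5726 at 11.1 mM); the y axis is the percent of those cells and the dashed line the 4% limit. The medians of the plotted cells are 8.14% at 3.9 mM and 31.9% at 11.1 mM, and the limit runs through the edge of the 3.9 mM distribution.

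The pair of insulin genes did not move in step. Ins1 (chr19:52264297-52265476) stood at 11974 CPM at 3.9 mM and 119530 at 11.1 mM, a log2 ratio of 3.32, where 1 log2 unit is 2-fold. Ins2 stood at 80188 and 252600 CPM, a log2 ratio of 1.66, and Iapp at 52225 and 103340, a log2 ratio of 0.98. Ins1 thus differed most of the 3, and its part of all insulin UMIs per cell had a median of 10.8% (quartiles 8.25 and 14.5) at 3.9 mM and 33.3% (29.2 and 36.4) at 11.1 mM. The ratio of Ins2 to Ins1 over all insulin cells was 6.70 at 3.9 mM and 2.11 at 11.1 mM. In UMIs per cell the medians went from 129 to 1460 for Ins1, from 1043 to 2897 for Ins2 and from 777 to 1165 for Iapp.

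Because hormones took so much of the UMIs at 11.1 mM, the scaling matters for all other genes. Transcripts of neither hormones nor mitochondria made up 79.6% of insulin-cell UMIs at 3.9 mM and 53.9% at 11.1 mM. UMIs were summed over the insulin cells of a library and scaled to CPM with edgeR's trimmed mean of M values (TMM), which sets the library size from the bulk of genes. The comparison took in every gene that reached 20 CPM at 3.9 or 11.1 mM, 5893 in all, and a gene was counted as higher or lower from 1.5-fold on, a rule of size and not a test. At 11.1 mM 651 genes (11.0%) were higher and 1003 (17.0%) lower, with a median log2 ratio of -0.09, and counting intervals were 0.14 wide in the median. Beyond 2-fold lay 251 genes higher and 259 lower, and beyond 4-fold 37 and 29. With plain CPM, which lowers every ratio by 0.43 in the median, the counts were 233 higher and 2959 lower, and without hormone and mitochondrial genes in the total, which raises it by 0.13, they were 1199 and 848, so a small ratio has no sign of its own here.

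**Figure D2:**
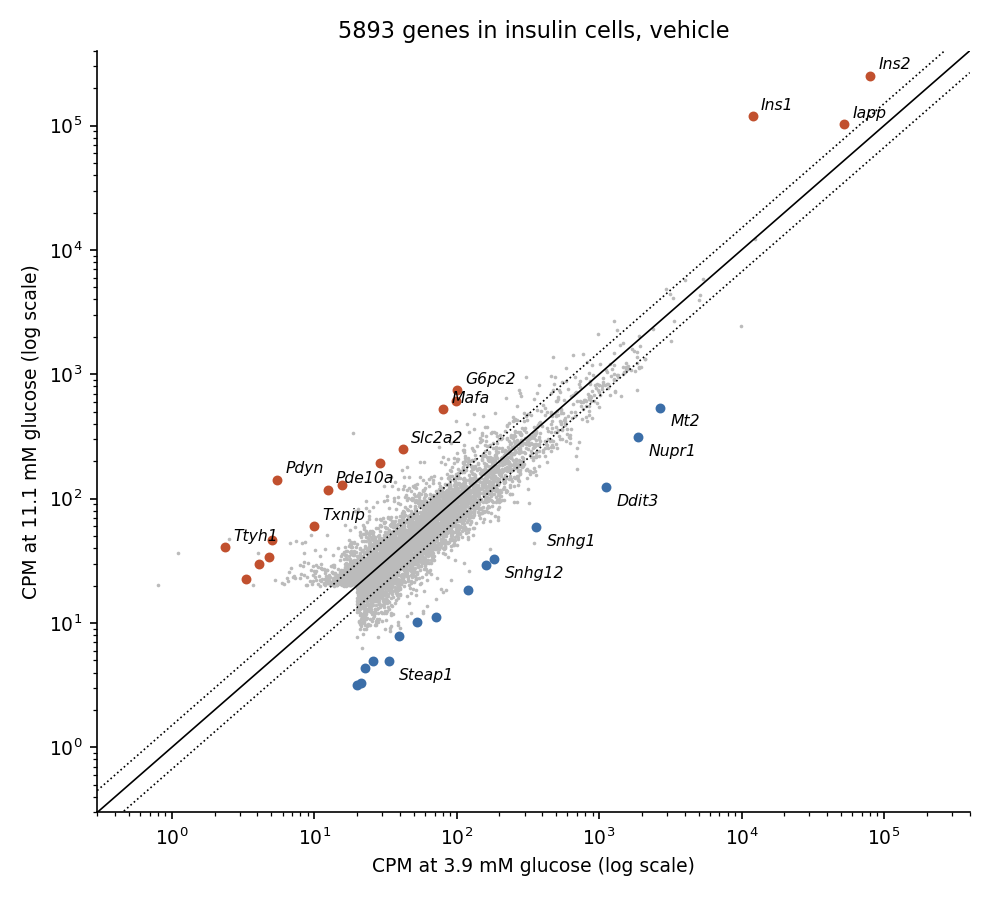
Level of each of the 5893 compared genes in insulin cells at 3.9 mM (x axis) and 11.1 mM glucose (y axis), in CPM on log scales, with red and blue points for the named genes, the solid line at equality and dotted lines at 1.5-fold. Ins1, Pdyn and Ttyh1 lie far above the line, and Ddit3, Nupr1, Mt2 and the snoRNA host gene Snhg1 far below it.

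The highest ratio of the named genes was that of Pdyn. Pdyn (chr2:129686565-129699844), the precursor of dynorphin opioid peptides, stood at 5.52 CPM at 3.9 mM and 142 at 11.1 mM, a log2 ratio of 4.69 (4.55 to 4.83). Ttyh1, a membrane protein of the tweety family, went from 2.36 to 41.0 CPM (4.12), and Pde10a, a phosphodiesterase that degrades cyclic nucleotides, from 12.4 to 118 (3.25). Slitrk6, a neuronal adhesion protein, went from 5.06 to 46.2 CPM (3.19) and Mrln, a micropeptide that binds the calcium pump of the endoplasmic reticulum, from 15.8 to 128 (3.02). Pdyn was not a gene of every cell. With each cell thinned to 3000 UMIs it was detected in 1.60% of insulin cells at 3.9 mM (interval 1.25 to 2.02) and 18.6% (17.6 to 19.7) at 11.1 mM, and unthinned in 6.59% and 36.1%. In glucagon cells, which gave 0.154% and 0.400% on the same thinned scale, it was near background.

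Genes that define the beta cell were higher at 11.1 mM. Of the 10 fixed beta-cell markers Ins1 and Ins2 are those by which the cells were chosen and are left aside here. The other 8 were above the 1.5-fold rule, against 11.0% of all genes, with log2 ratios from 0.88 to 2.88 and a median of 1.69. Mafa (chr15:75745490-75748228), the factor of mature beta cells that binds the insulin promoter, stood at 80.2 CPM at 3.9 mM and 522 at 11.1 mM (2.70), and Pdx1, the factor of pancreas and beta-cell development, at 41.3 and 171 (2.05). Ucn3, a peptide of mature beta cells, went from 78.3 to 198 CPM (1.34). Among 15 transcription factors of endocrine cells that were compared, 6 were higher and 2 lower, with a median of 0.50. Besides Mafa and Pdx1 the higher ones were Isl1 (1.25), Nkx2-2 (1.15), Nkx6-1 (1.12, from 150 to 326 CPM) and Pax6 (1.00). Neurod1, which binds E-boxes of the insulin genes, stood at 154 and 219 CPM (0.50), under the rule. Insm1, a zinc-finger factor of endocrine precursors, was among the lower ones (297 and 189 CPM, -0.65). Prlr, the prolactin receptor through which beta cells adapt to pregnancy, was also among the highest genes, with 98.7 and 616 CPM (2.64).

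Machinery that makes and packs insulin was higher at 11.1 mM as well. Of 15 genes of granins and prohormone processing 10 were higher and 0 lower, and all 15 ratios were above 0, with a median of 0.88. Pcsk1, the convertase that cleaves proinsulin, went from 121 to 346 CPM (1.51), and Ero1lb, the oxidase that helps proinsulin form its disulphide bonds, from 223 to 645 (1.53). Pam, which amidates peptides, had a log2 ratio of 1.32, Ptprn, a granule membrane protein, 1.27, and the granins Chgb and Chga 1.13 and 0.73. Slc30a8, the zinc transporter of insulin granules, went from 247 to 455 CPM (0.88). The lowest ratios were those of Cpe, the carboxypeptidase that trims the cleaved chains (0.27), and Pcsk1n, an inhibitor of Pcsk1 (0.05). With plain CPM the ratio of Cpe was -0.16.

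Receptors and exocytosis genes were split. Of 9 G protein-coupled receptors that were compared, 7 were higher and 0 lower, with a median of 1.02: the fatty acid receptor Ffar1 went from 19.4 to 79.4 CPM (2.03), and the incretin receptor Gipr had a ratio of 1.76 and Vipr1, a receptor of vasoactive intestinal peptide, of 1.73. Glp1r, the receptor of the incretin GLP-1, had the smallest ratio of the 7, with 308 and 463 CPM (0.59). Of 21 exocytosis genes 9 were higher and 0 lower, with a median of 0.43 that was -0.08 with plain CPM. Syt5, a synaptotagmin, went from 8.24 to 44.3 CPM (2.42) and Rasd1, a small GTPase, from 3.73 to 20.3 (2.44). Syt7, the calcium sensor of insulin granules, was nearly level with 161 and 165 CPM (0.03), and Syt4 was at 457 and 341 (-0.42). The immunophilin Fkbp1b, a partner of intracellular calcium channels, went from 37.0 to 136 CPM (1.88). Of 16 channel genes 2 were higher and 2 lower, against 11.0% and 17.0% of all genes, with a median of 0.05.

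The genes that admit glucose differed in unequal steps. G6pc2, the islet enzyme that takes the phosphate off phosphorylated glucose, went from 101 to 744 CPM (2.88), and Slc2a2 from 41.9 to 252 (2.59). Slc2a1 (GLUT1) was at 26.8 and 40.4 CPM (0.59). Thinned to 3000 UMIs, G6pc2 was detected in 30.6% of cells at 3.9 mM and 78.6% at 11.1 mM, and Slc2a2 in 14.3% and 43.7%. In glucagon cells the shares for G6pc2 were 8.15% and 9.20%, and for Slc2a2 2.62% and 1.80%, or 0.945% and 1.26% in those under 1% insulin UMIs.

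Glycolysis was higher nearly throughout. Of 16 compared genes 14 were higher and 1 lower, with a median of 1.47. Gapdh went from 477 to 1384 CPM (1.54), Pkm, pyruvate kinase, from 309 to 944 (1.61), Pgk1 from 153 to 464 (1.60), and Pfkp, a phosphofructokinase, from 30.9 to 95.5 (1.63). Gpd2, which shuttles glycolytic electrons into mitochondria, went from 32.2 to 97.3 CPM (1.59), and the aldolase gene Aldoa from 549 to 862 (0.65). The exception was Eno2, the neuronal enolase, at 36.1 and 16.1 CPM (-1.16), while Eno1 had a ratio of 1.20. Ldha, lactate dehydrogenase A, an enzyme kept low in beta cells, stood at 4.04 and 36.8 CPM (3.19), but it was over 10 times higher in other cells at 3.9 mM and was detected in 0.825% and 6.27% of thinned insulin cells. Of 16 genes of the hypoxia response 10 were higher and 0 lower, with a median of 0.80: Bnip3, a mitophagy receptor, went from 132 to 361 CPM (1.46) and Pdk1, which curbs pyruvate dehydrogenase, from 21.1 to 50.7 (1.27), but Vegfa was at 226 and 197 (-0.20). The letters ACGTG, the core of the hypoxia response element, occurred in 14 of the 35 windows of 20 glycolysis genes (40%) and in 16.6% of all windows. The share was 58.6% for the hypoxia genes. It was also above that of all windows for cytosolic ribosomal proteins (27.4%), beta-cell markers (25%) and stress regulators (23.1%).

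The cholesterol and lipogenesis genes past the 1.5-fold rule were all higher at 11.1 mM. Of 14 cholesterol genes 9 were higher and 0 lower, with a median of 0.70, and of 10 lipogenesis genes 4 and 0, with a median of 0.48. Idi1, an isomerase of the sterol pathway, had a log2 ratio of 1.41. Scd2, a desaturase, went from 46.1 to 149 CPM (1.70), Fasn, fatty acid synthase, from 11.4 to 27.3 (1.26), and Acly, which makes cytosolic acetyl-CoA from citrate, from 348 to 630 (0.86).

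Txnip, an arrestin-like protein that glucose is known to induce through the factor ChREBP, was among the highest ratios, with 9.96 CPM at 3.9 mM and 59.9 at 11.1 mM (2.59, interval 2.48 to 2.70). Its level in insulin cells was below that in glucagon cells, which held 71.8 and 110 CPM, and after thinning it was detected in 3.53% and 13.2% of insulin cells against 20.2% and 24.4% of glucagon cells. A part of its UMIs in insulin cells can be free RNA, which was not tested. Mlxipl, the gene of ChREBP, was at 75.1 and 86.1 CPM (0.20, and -0.24 with plain CPM). Of the 7 compared genes of that list 1 was higher and 1 lower, against 11.0% and 17.0% of all genes.

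Immediate early genes, which neurons and endocrine cells switch on with calcium entry, were higher: 11 of 13 compared and 0 lower, with a median of 1.33. Btg2 went from 80.4 to 215 CPM (1.42), Junb from 35.2 to 66.0 (0.91) and Jun from 33.2 to 54.1 (0.70). Fos went from 1.10 to 36.4 CPM (5.04) and Egr1 from 2.51 to 47.7 (4.25), but both were over 10 times higher in another class of cells at 3.9 mM. Thinned, Fos was found in 0.183% and 8.00% of insulin cells and in 3.69% and 21.6% of glucagon cells.

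Mitochondrially encoded genes and nuclear genes of mitochondrial translation and folding stood on opposite sides of 0. Of 11 mitochondrially encoded genes 7 were higher and 0 lower, with a median of 0.92. The complex I gene mt-Nd4 went from 990 to 2127 CPM (1.10) and mt-Cytb of complex III from 1265 to 2671 (1.08), whereas mt-Co1 of complex IV was at 5385 and 5880 (0.13, and below 0 with plain CPM). Barcodes above the 20% mitochondrial limit, 13.4% and 5.21% of the libraries, had been left out, and their part in this was not tested. Of 75 nuclear genes of oxidative phosphorylation 2 were higher and 16 lower, near the 17.0% of all genes, with a median of -0.29 that was -0.16 without hormone and mitochondrial genes in the total, and no direction is read from them. Genes of the mitochondrial ribosome lay lower, with 33 of 70 lower, 0 higher and a median of -0.55, led by Mrps9 at 49.9 and 21.5 CPM (-1.21). Of 14 mitochondrial chaperones and proteases 8 were lower and 0 higher, with a median of -0.85: the chaperone Hspa9 (mortalin) went from 621 to 278 CPM (-1.16), Hspd1 (HSP60) from 475 to 260 (-0.87) and the matrix protease Lonp1 from 101 to 42.8 (-1.24). Of 26 genes of pyruvate entry and the citric acid cycle 4 were higher and 4 lower, against 11.0% and 17.0% of all genes. Among them Pcx, pyruvate carboxylase, went from 17.0 to 38.0 CPM (1.16), and Got1, the cytosolic aspartate transaminase, from 97.9 to 32.3 (-1.60).

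Stress genes of the Atf4 and Ddit3 branch stood at the low end. Ddit3 (chr10:127290774-127296288), the factor CHOP, had the lowest ratio of all named genes, with 1119 CPM at 3.9 mM and 125 at 11.1 mM (-3.17, interval -3.20 to -3.13). The count is that of the identifier listed first under this symbol, which occurs for another identifier too. Nupr1, a small stress-induced nuclear protein, stood at 1868 and 314 CPM (-2.57), Trib3, a pseudokinase that dampens Akt, at 121 and 26.1 (-2.22), and the secreted stress cytokine Gdf15 at 31.6 and 8.91 (-1.83). Of 16 compared regulators of the integrated stress response 8 were lower and 2 higher, with a median of -0.68. Ppp1r15a (GADD34), which restores translation, had a ratio of -1.35 and Cebpb of -1.07, but Atf4 itself was at 243 and 186 CPM (-0.38), under the rule. The higher ones were Ero1l, an oxidase of the endoplasmic reticulum (0.98), and Ddit4 (0.72), which curbs mTOR. Lists of enzymes and synthetases that Atf4 is known to drive had shares of lower genes near the 17.0% of all genes. Of 11 genes of amino acid synthesis 2 were higher, against 11.0% of all genes, and 2 lower. Asns was at -0.40 and Mthfd2 at -0.80, and Cbs, which makes cystathionine from homocysteine, at 4.10 and 30.0 CPM (2.87). Of 18 aminoacyl-tRNA synthetases 3 were lower and 0 higher.

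The endoplasmic reticulum chaperones and folding enzymes went both ways. Of 32 genes of the unfolded protein response 8 were higher and 3 lower, against 11.0% and 17.0% of all genes. More members were thus higher, and fewer lower, than by those shares. The median was 0.11, and -0.32 with plain CPM. Hspa5 (BiP), the master chaperone of this compartment, was lower with 1892 and 1121 CPM (-0.75), whereas the chaperone Hspa13 (54.8 and 111.2, 1.02) and the disulphide isomerase P4hb (263 and 430, 0.71) were higher.

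Mt1 and Mt2, metallothioneins that bind zinc and copper, were lower at 11.1 mM too. Mt1 went from 9870 to 2453 CPM (-2.01) and Mt2 from 2685 to 541 (-2.31). Mt3, the metallothionein known from brain, went the other way at a level under the 20 CPM floor, with 1.77 and 13.5 CPM (2.93, interval 2.67 to 3.20). Of the 7 other compared members of the list, zinc transporters and the metal-sensing factor Mtf1, 6 were higher, among them Slc30a8, and 1 was lower, with a median of 0.77. The lower one was the zinc exporter Slc30a1, at 29.0 and 17.3 CPM (-0.74).

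Several of the 15 lowest named genes were host genes of small nucleolar RNAs, long noncoding transcripts whose introns hold the guide RNAs of ribosomal RNA modification and whose spliced forms are degraded during translation. Snhg1 went from 362 to 59.2 CPM (-2.61), Snhg12 from 184 to 32.5 (-2.50), Zfas1 from 160 to 29.3 (-2.45) and Snhg6 from 121 to 18.4 (-2.72). Gas5, known to accumulate when growth stops, went from 706 to 254 CPM (-1.48). Of 13 compared host genes 9 were lower and 0 higher, with a median of -1.88, and Snhg3 had the top ratio (37.1 and 55.3 CPM, 0.58). The 13 include the protein-coding host gene Rack1, at 673 and 497 CPM (-0.44). At these levels it is a large part of every sum over the host genes given below. Protein genes of translation had ratios nearer 0. Of 77 cytosolic ribosomal proteins 15 were lower and 0 higher, near the background of 17.0%. Of the 77 ratios 74 were below 0, where the median of all genes was below 0 as well (-0.09). The median of the list was -0.42 (-0.29 without hormone and mitochondrial genes in the total). The sign of its smallest ratios, such as Rpl41 (-0.03), depends on the scaling. Of 29 initiation factors 10 were lower and 1 higher, with a median of -0.38, led by Eif4b at 179 and 86.6 CPM (-1.04).

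Heat shock genes went both ways. Of 17 genes 7 were lower and 4 higher, with a median of -0.46. The constitutive chaperones Hspa8 (1848 and 745 CPM, -1.31) and Hsp90ab1 (1985 and 1156, -0.78) were lower, and so was Hsp90aa1 (1299 and 727, -0.84). The inducible Hspa1a (32.4 and 105 CPM, 1.70) and Hspa1b (45.0 and 117, 1.38), near-identical neighbours between which reads may be split, and Hspb1 (6.85 and 27.8, 2.02) were higher. With imeglimin Hspa1a, Hspa1b and Hspb1 were lower at 11.1 mM in insulin cells (-1.58, -2.24 and -1.25). In glucagon cells under vehicle they were higher (3.49, 2.32 and 2.13). Those ratios of summed UMIs do not show how many glucagon cells carried the difference. A few insulin cells carried the vehicle difference of Hspa1a and Hspa1b. Ranked by the UMIs of each gene, the top 1% at 11.1 mM held 83.1% of Hspa1a UMIs and 85.0% of those of Hspa1b. The shares at 3.9 mM were 19.4% and 15.6%. Ranked instead by the share of both genes together, the top 1% were 52 cells at 11.1 mM and 46 at 3.9 mM. Their medians were 197.5 and 13.5 Hspa1a and Hspa1b UMIs. Without these cells the ratio of Hspa1a was 0.03 and that of Hspa1b -0.66, and after thinning Hspa1a was detected in more cells at 3.9 mM (9.83%) than at 11.1 mM (3.43%).

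**Figure D3:**
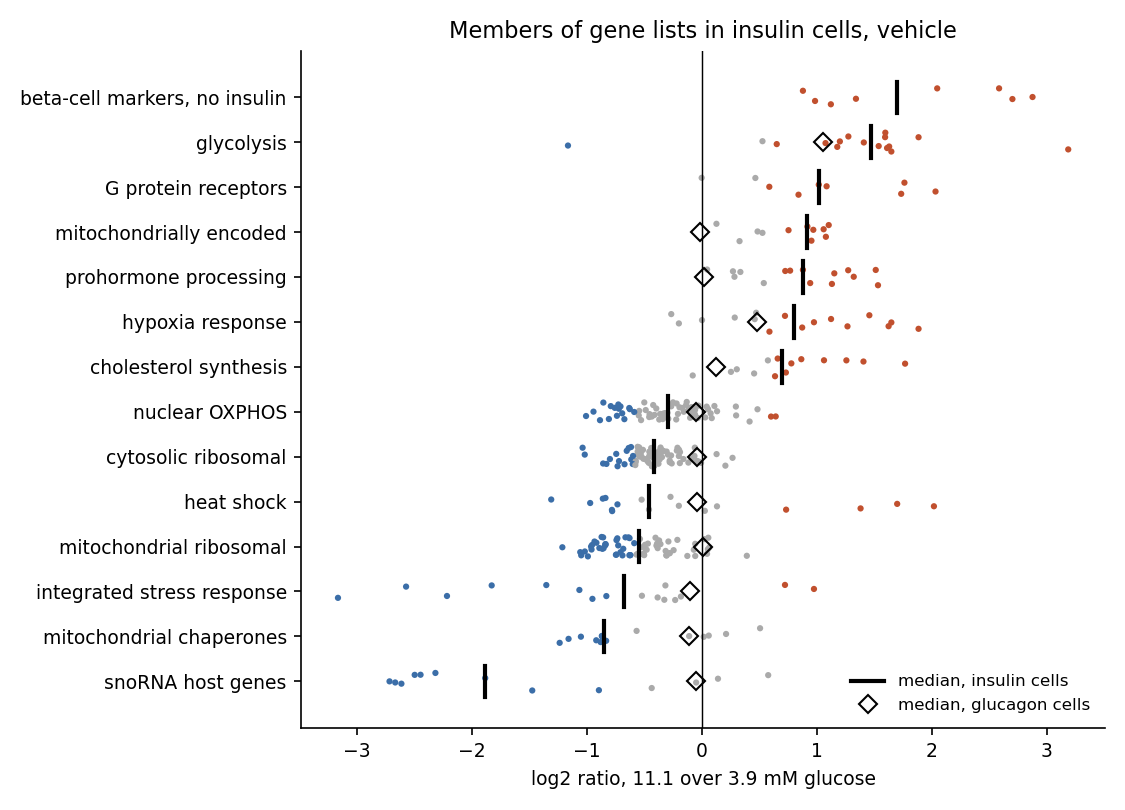
Log2 ratio of 11.1 over 3.9 mM glucose for each compared member (points, red from 1.5-fold higher, blue from 1.5-fold lower, grey between) of 14 gene lists in insulin cells, with the median of insulin cells (bars) and of glucagon cells under 1% insulin UMIs (diamonds, only where such members were compared). The beta-cell markers are shown without Ins1 and Ins2 and without a diamond. Glycolysis is to the right in both cell classes, while the median of the snoRNA host genes is -1.88 in insulin cells and -0.05 in glucagon cells.

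Several other lists had few members past 1.5-fold, where of all genes 11.0% were higher and 17.0% lower. The 37 proteasome genes had 1 higher and 2 lower, with a median of -0.09, the 10 clock genes 0 and 1 (0.03), the 29 lysosome and V-ATPase genes 1 and 2 (-0.17) and the 3 NF-kB targets 0 and 0. Targets of p53 had 2 of 16 higher and 6 lower, with a median of -0.34: Phlda3 went from 25.9 to 4.91 CPM (-2.40), Ccng1 from 171 to 66.1 (-1.37) and Cdkn1a (p21) from 164 to 104 (-0.65). Of 13 genes that FOXO factors or fasting induce 8 were higher and 1 lower, with a median of 0.70, led by Trib1 at 8.62 and 44.9 CPM (2.38). Hmox1, the haem oxygenase, went from 91.7 to 278 CPM (1.60). This ratio of summed UMIs does not show how many insulin cells carried the difference. The nuclear transcript Malat1 was level at 12513 and 12319 CPM (-0.02).

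Read cell by cell, some of these shifts involved most cells, among them those of Ddit3, of Mt1 and Mt2, of the snoRNA host genes and of Ins1. Each insulin cell with enough UMIs was thinned to 3000 (4363 and 5136 cells; 162 and 61 shallower ones left out). Ddit3 was detected in 95.8% of cells at 3.9 mM and 19.2% at 11.1 mM, Nupr1 in 84.5% and 30.4%, and Trib3 in 36.3% and 6.29%. In all glucagon cells, some of which held insulin transcripts at 3.9 mM, the shares for Ddit3 were 29.5% and 7.40%, and in those under 1% insulin UMIs 18.5% and 7.32%. Mt1 and Mt2 together had a median of 46 UMIs per cell at 3.9 mM (quartiles 34 and 58) and 3 at 11.1 mM (1 and 10), and 2.78% of 11.1 mM cells lay above the 3.9 mM median. The snoRNA host genes, Rack1 included, had medians of 9 and 3 UMIs, with 1.30% above, and Ins1 of 31 and 329, with 99.8% above.

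Because insulin takes up thinned UMIs, hormone UMIs were also removed before thinning to 3000 (4339 and 5047 cells; 186 and 150 left out). The stress regulators then had medians of 20 UMIs at 3.9 mM and 6 at 11.1 mM, with 7.37% of 11.1 mM cells above the 3.9 mM median, and Mt1 and Mt2 56 and 6, with 5.55% above. The 7 beta-cell markers other than hormones went from 3 to 13 UMIs, with 90.4% above, prohormone processing from 46 to 82, with 96.5%, and mitochondrially encoded complex I genes from 11 to 26, with 88.5%. Glycolysis went from 8 to 21 UMIs, with 86.5% above, and was spread more widely at 11.1 mM (quartiles 11 and 37) than at 3.9 mM (6 and 11). The hypoxia genes hardly moved in the median cell, from 4 to 5 UMIs, while the upper quartile went from 6 to 10.

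Within the 11.1 mM library the insulin cells were not uniform. Cells were put into quintiles by insulin share, and other transcripts were scaled to CPM of the UMIs left without hormones (hormone-free CPM), since a share of all UMIs would drop as insulin rises. From the lowest to the highest quintile at 11.1 mM, glycolysis transcripts went from 10364 to 7283 hormone-free CPM and hypoxia transcripts from 3701 to 2054, while the 7 beta-cell markers went from 3208 to 4842 and nuclear oxidative phosphorylation transcripts from 21149 to 27005. Mt1 and Mt2 went from 7140 to 3547 over the same quintiles and Slc2a2 from 249 to 524. At 3.9 mM glycolysis and the beta-cell markers had little gradient, lying between 3231 and 3524 and between 1050 and 1217. Across cells, Spearman's rho with insulin share was taken in each library. At 11.1 mM (n = 5047) it was 0.35 for nuclear oxidative phosphorylation, 0.23 for the beta-cell markers, -0.19 for glycolysis and -0.20 for hypoxia transcripts. In the same order it was 0.04, 0.06, 0.02 and 0.02 at 3.9 mM (n = 4339). Prohormone processing went with insulin share in both libraries, with a rho of 0.28 at 11.1 mM and 0.26 at 3.9 mM. These are descriptions of cells that share a library. Total depth went with insulin share: the median UMIs per cell were 10741 in the lowest and 15048 in the highest quintile at 11.1 mM, and 11017 and 13985 at 3.9 mM. Those totals include the insulin UMIs. For hormone-free UMIs per cell the rho with insulin share was -0.06 at 11.1 mM and 0.05 at 3.9 mM. The part of depth was not tested.

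**Figure D4:**
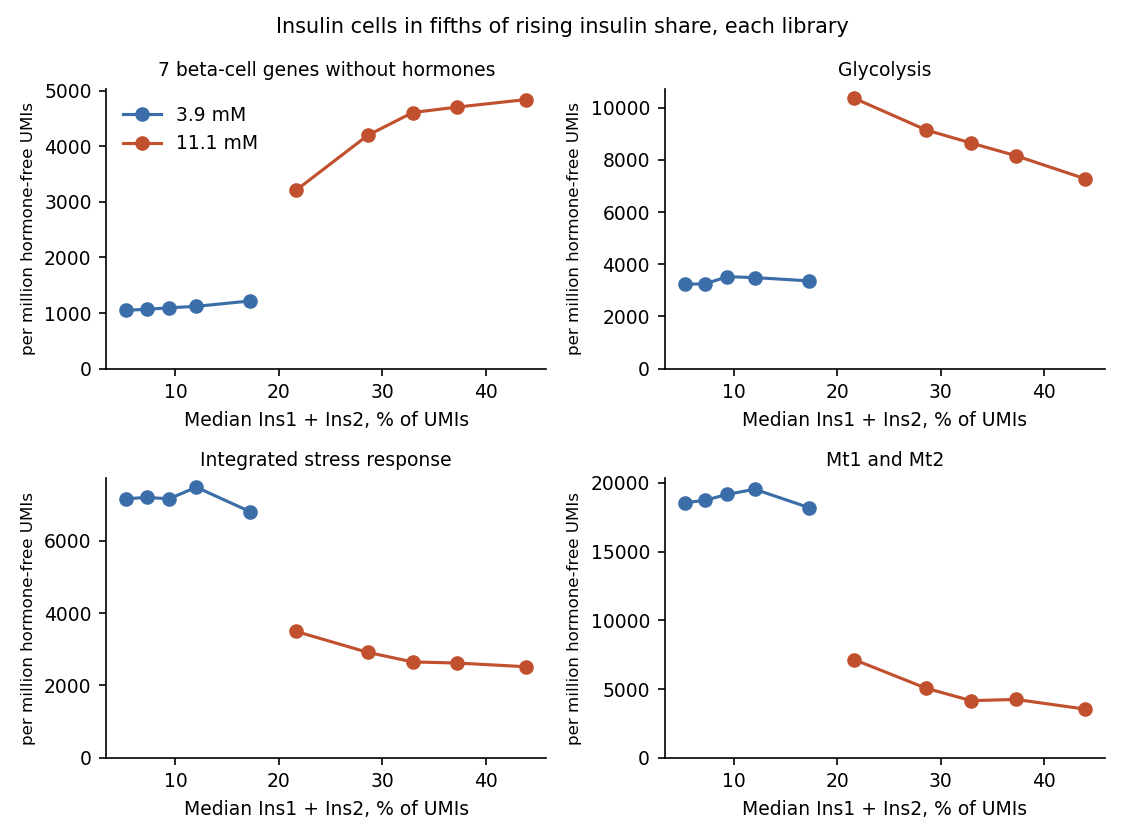
Summed transcripts of 4 gene sets in hormone-free CPM (y axis, from 0) against the median insulin share (x axis, % of UMIs) of each quintile of insulin cells, at 3.9 mM (blue) and 11.1 mM glucose (red). Each set differs more between libraries than within either, and the nearest quintiles of the libraries (17.2% and 21.6% insulin) stay apart in all 4 sets.

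Cells with like insulin shares still differed between the libraries. In the window of 15 to 25% insulin UMIs lay 617 cells at 3.9 mM, its upper edge, and 821 at 11.1 mM, its lower edge, with medians of 17.5% and 21.9%. In hormone-free CPM, the 11.1 mM cells of this window had log2 ratios of 1.49 for the beta-cell markers, 1.57 for glycolysis, -1.0 for the stress regulators, -1.44 for Mt1 and Mt2 and -0.90 for the snoRNA host genes, where all insulin cells had 1.96, 1.37, -1.33, -1.96 and -1.06. Of the 651 genes that were higher over all insulin cells 497 were at least 1.5-fold higher in the window, and of the 1003 lower ones 908 were lower. Ddit3 had a ratio of -2.57 there, Mafa 2.02, Slc2a2 1.96 and Pdyn 4.01 on the hormone-free scale. Ins2, which the window itself restricts, had -0.13 on the TMM scale and Ins1 1.42.

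Glucagon cells of the same libraries, 679 at 3.9 mM and 551 at 11.1 mM, gave a smaller set of differences. At a floor of 50 CPM 3323 genes were compared, of which 47 (1.41%) were higher and 73 (2.2%) lower. The floor is higher than the 20 CPM used for insulin cells and the depth lower, so these counts are not on the same footing. At 3.9 mM some of these cells held insulin transcripts, so a limit of 1% insulin UMIs was added after seeing the data, which left 554 and 519 cells, 38 genes higher and 14 lower of 3265. Markers of acinar cells, which secrete digestive enzymes, moved with the glucose step in them: all 8 were higher at 11.1 mM, with a sum of 35.4 CPM at 3.9 mM and 484 at 11.1 mM, led by the protease precursor Ctrb1 (16.0 and 188 CPM), and their part in the other differences was not tested. The 7 macrophage markers summed to 56.2 and 109 CPM. In these cells glycolysis had 11 of 12 genes higher with a median of 1.05, with Gapdh at 0.78 and Pkm at 0.60. Fos (2.69) and Egr1 (1.43) were higher as well. Prohormone processing had a median of 0.02 and mitochondrially encoded genes of -0.01, each with 0 members past 1.5-fold. The 9 compared snoRNA host genes had a median of -0.05 and 0 past the rule, with Snhg1 at 0.00, Gas5 at -0.27 (interval -0.36 to -0.18) and Zfas1 at -0.50 (-0.76 to -0.25). Of the beta-cell markers only 4 were compared, of which the insulin limit restricts Ins1 (1.92) and Ins2 (0.31), while Iapp had -0.68 and Slc30a8 0.14. Ddit3 was at 72.2 and 32.5 CPM (-1.15), where all glucagon cells had 279 and 31.3 (-3.15), Nupr1 at 84.4 and 14.6 (-2.53) and Mt1 at 1200 and 575 (-1.06). Differences between the cell classes were not tested, since each rests on the same 2 libraries. Somatostatin cells were too few to compare, with 40 and 135.

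The 2 imeglimin libraries share no library with the vehicle pair and hold the same step in glucose. Acinar markers ran against that step in their insulin cells, with Ctrb1 at 237 CPM at 3.9 mM and 13.6 at 11.1 mM against 11.1 and 19.9 under vehicle, and their part was not tested. Of the 582 genes higher under vehicle that reached 20 CPM in either imeglimin library 550 (94.5%) had a ratio above 0 there and 414 (71.1%) were at least 1.5-fold higher. Over all 5561 genes compared in both pairs 45.4% had a ratio above 0 and 17.0% were at least 1.5-fold higher. Of 932 lower genes 842 (90.3%) had a ratio below 0 and 578 (62.0%) were at least 1.5-fold lower, against 21.4% of all. Mafa (2.74), Pdx1 (1.97) and Iapp (0.94) had ratios near those under vehicle, G6pc2 (4.86) and Ttyh1 (6.33) larger ones, and Ins1 (1.67) and Ins2 (0.26) smaller ones. Ins2 stood at 195630 CPM with imeglimin at 3.9 mM against 80188 with vehicle. Steap1, a metalloreductase, had -0.05 with imeglimin against -2.76 under vehicle, and Nkx6-1 had -0.13 against 1.12. Ddit3 (-2.21), Snhg1 (-3.69), Mt2 (-1.59) and Mt1 (-0.85) were lower in both pairs. Whether a ratio differs between the pairs was not tested, with 1 library in each condition.

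**Figure D5:**
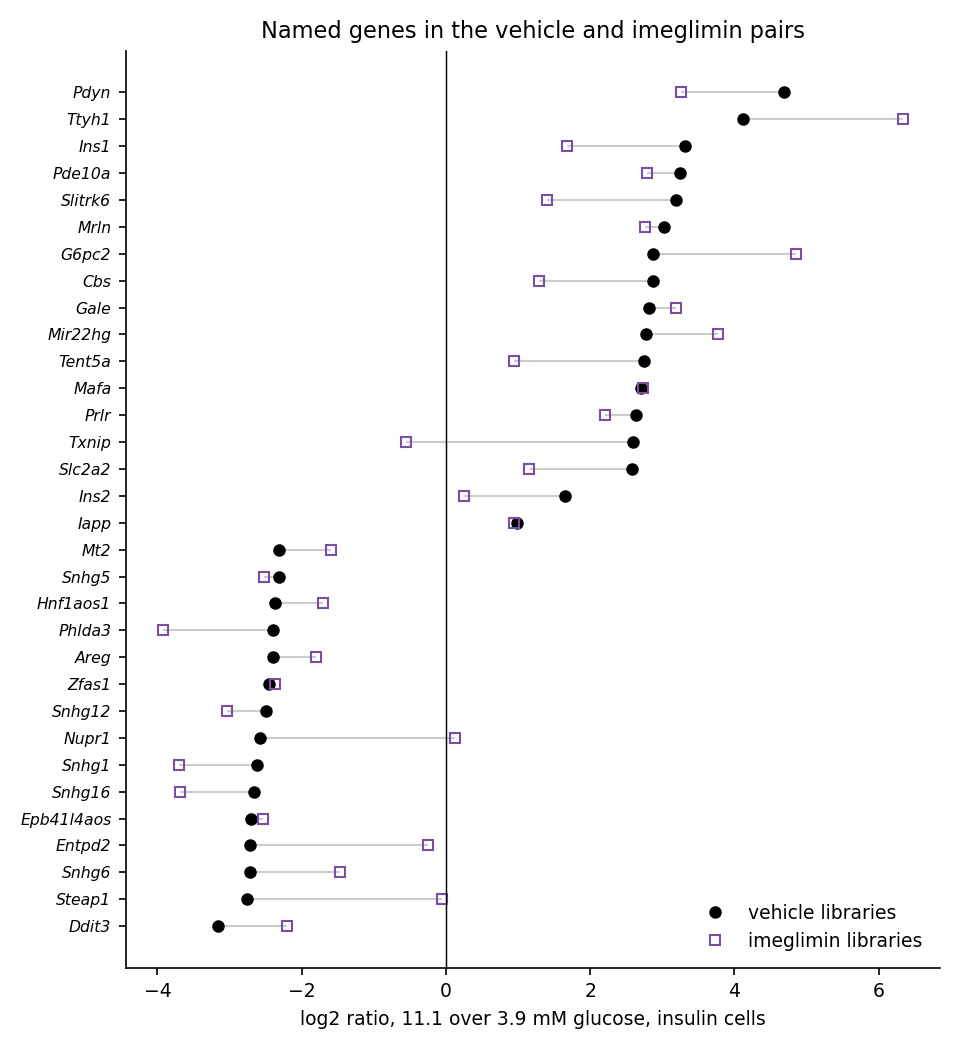
Log2 ratio of 11.1 over 3.9 mM glucose in insulin cells (x axis) for the named genes (y axis), with vehicle libraries as filled circles and imeglimin libraries as open squares, joined by grey lines. The genes stand on the same side of 0 in both pairs, except Txnip (2.59 and -0.56) and Nupr1 (-2.57 and 0.12), and Steap1 stands near 0 with imeglimin.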

How the data were processed

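The authors deposited filtered matrices of UMI counts per gene and cell barcode for each library. Per the submitters' processing notes they used Cell Ranger 6.0.2 and build mm10. Counts were read as deposited and cells selected as described above. Barcodes are those of the deposited filtered matrices. Doublets were scored with scanpy 1.11.5 (Scrublet). The caller marked no cell in either library, so only the hormone limits bear on doublets, and leaving out the highest scores was an alternative. UMIs were summed per library over insulin cells and scaled with TMM factors of edgeR 4.0.16 (R 4.3.3) over the 4 libraries. Log2 ratios have exact 95% Poisson intervals. Calculations used Python 3.11.15, numpy 2.4.6, scipy 1.17.1, pandas 2.3.3 and matplotlib 3.10.9. Gene positions are from GENCODE for GRCm38, and upstream windows from RefSeq, which matched 19 of 22 stress regulators, 20 of 22 glycolysis genes and 7 of 10 beta-cell markers.

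Named genes are the 15 highest and 15 lowest log2 ratios among genes of at least 20 CPM in either library that were at least 1.5-fold apart in the same direction under TMM, plain CPM and the mean of per-cell CPM, without unnamed gene models and without genes over 10 times higher in other cell classes. Each list is described by members with its highest and lowest ratios and its best known members, and Ins1, Ins2 and Iapp are always named. A few list members are not reported here. Members and lists were chosen with earlier results of these data known. A few further genes were named after their values were seen: Fkbp1b, Hmox1, Malat1, Syt7, Pfkp, Eno1, Neurod1 and Spp1. On simulated counts with the depth of the vehicle comparison, 5848 genes passed the floor. At each of the set log2 ratios of 2, 1, -1 and -2, 50 of 50 genes were past 1.5-fold. Of 5646 unaltered genes 0 were. Counting intervals held the set ratio for 96%, 86%, 98% and 98% of genes in that order, and for 95.64% of unaltered genes. The simulation cannot give a rate of false calls for the real comparison, since spread between cultures was not measured and the counts depend on the scaling. The alternatives were other scalings, limits on insulin, depth and level, thinning to 3000 UMIs, and leaving out cells, as given in the closing section.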

Additional observations from a re-analysis of the deposited data

Results flagged for a closer look

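Txnip had opposite ratios in the vehicle and imeglimin pairs: 2.59 under vehicle and -0.56 with imeglimin, where it stood at 31.2 CPM at 3.9 mM and 21.2 at 11.1 mM. Nupr1 was lower at 11.1 mM under vehicle (-2.57) and slightly higher with imeglimin (0.12), at 1025 and 1114 CPM. In glucagon cells the ratios of Iapp (-1.84) and Ins2 (-1.28) were opposite to those of insulin cells (0.98 and 1.66). With glucagon cells under 1% insulin UMIs these were -0.68 for Iapp and 0.31 for Ins2. None of these differences was tested, since each condition is 1 library.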

How the results depend on the processing

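The number of genes at least 1.5-fold higher at 11.1 mM was 651. It was 233 with plain CPM, 1199 with CPM without hormone and mitochondrial genes, 369 with a floor of 50 CPM and 1162 with a floor of 5 CPM. The number of lower genes was 1003. It was 2959 with plain CPM, 571 with the floor of 50 CPM and 1522 with that of 5 CPM. The other settings gave 577 to 833 higher and 806 to 1223 lower genes. The mean of per-cell CPM raised the median by 0.11 and gave 833 higher and 806 lower. The share of insulin cells at 3.9 mM was 69.72% with a limit of 2% insulin UMIs, 39.55% with 8%, 71.69% with the Iapp limit and 64.78% among cells of at least 3000 UMIs. At 11.1 mM the last of these gave 71.99%, and the 2%, 8% and Iapp limits 70.11%, 69.57% and 69.96%. Of 756 values for 54 genes over 14 settings 429 lay inside the counting interval of the reported ratio. These intervals thus do not cover the choice of processing. Of the 756 values 2 put a gene that was 1.5-fold apart on the other side of 0. Hspa1b was -0.66 without the 1% of cells highest in Hspa1a and Hspa1b, and Ins2 was -0.13 in cells of 15 to 25% insulin UMIs. Both settings were chosen after seeing the data. Of 392 medians for 28 lists 283 lay within 0.1 of the reported one. In glucagon cells the limit of 1% insulin UMIs gave 38 higher and 14 lower genes in place of 47 and 73. No paired analysis was possible because each condition is 1 library. The 1-library design limits every statement, and at 3000 UMIs per cell a gene with few UMIs may go undetected in cells that express it.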
